A study of Mus musculus with 14 samples.

Results

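The 6 genes described here encode membrane, cytosolic and GTPase subunits of the phagocyte NADPH oxidase: Cybb and Cyba in the membrane, Ncf1 and Ncf4 in the cytosol, and the GTPases Rac1 and Rac2. They were chosen by symbol, for what their proteins do, from the 22155 genes of the count table, and the choice does not cover every subunit of the complex. All 6 were among the 11169 genes tested. The series holds 14 samples, of which the 6 mRNA libraries are used here and the 8 chromatin immunoprecipitation samples were not analysed here. The study asked what happens to leukemia cells when Sgf29, a chromatin reader in the SAGA and ATAC histone acetylation complexes, is targeted by CRISPR.

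MLL-AF9-Cas9+ cells are a mouse model of acute leukemia. Per the study's methods they came from lineage-negative bone marrow cells that were transformed with a retrovirus carrying the MLL-AF9 fusion and passed through recipient mice, after which blasts were cultured with SCF, IL-3 and IL-6 and given Cas9 from a lentivirus. The 3 sgSgf29 libraries are from such cells transduced with a guide RNA against Sgf29, and the 3 sgCtrl libraries are from the same kind of cells transduced with a guide RNA against a nonessential sequence. Both groups therefore carry MLL-AF9, Cas9 and a guide vector with puromycin resistance, and both were selected in puromycin at 2 μg/ml for 3 days. The cells of a library are a selected pool and may hold different edits of Sgf29. The labels say neither whether the libraries of a group came from separate cultures nor whether their numbers stand for different guide sequences, and a p-value here stands for the spread among these libraries alone, which may be technical.

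The phagocyte oxidase passes electrons from NADPH in the cytosol across a membrane to oxygen and so makes superoxide, which neutrophils and macrophages use against microbes. Its catalytic core is flavocytochrome b558, a heterodimer of gp91phox, encoded by Cybb, and p22phox, encoded by Cyba. On stimulation, phosphorylated cytosolic subunits and a GTP-bound Rac join the core, and inherited loss of gp91phox, p22phox or p47phox in humans causes chronic granulomatous disease.

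Genes took 16085601 to 20185751 counts in the sgSgf29 libraries and 16003990 to 21786618 counts in the sgCtrl libraries. Levels are given as CPM, counts relative to a library's total after TMM scaling (trimmed mean of M values, which equalizes libraries over the bulk of their genes), and a gene was called at an adjusted p under 0.05 in edgeR's quasi-likelihood test over all genes tested. Sgf29 itself measured 12.6, 13.4 and 17.4 CPM in the sgSgf29 libraries, against 36.2, 40.4 and 40.4 CPM in the sgCtrl libraries, a log2 fold change of -1.43 (SE 0.11, adjusted p = 2.88e-10, edgeR), and of its 1312 exon bases 169 overlap 2510046G10Rik and 61 overlap Sult1a1, both on the opposite strand. Of all genes tested, 69.8% were called, 35.4% as higher and 34.4% as lower in sgSgf29, and the groups did not overlap for 72.1%, with 37.0% above and 35.1% below. Among the oxidase subunits 4 rose (Cybb, Ncf1, Rac1 and Rac2), 1 fell with TMM scaling but not with library size alone (Cyba) and 1 did not pass the test (Ncf4). That is 5 of 6 called, against the 69.8% of all genes tested. With TMM scaling the groups did not overlap for any of the 6, with 5 above and 1 below, but for Ncf4 the nearest libraries were 324.47 CPM in sgSgf29 and 324.46 CPM in sgCtrl, and Cyba was not lower with library size alone. The 6 had a median log2 fold change of 0.38, against 0.01 for all genes tested. The 6 were chosen with earlier results of these data known, so their contrast with all genes tested is a description only. In bulk RNA, fewer cells of a type and less RNA per cell cannot be told apart.

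**Figure D1:**
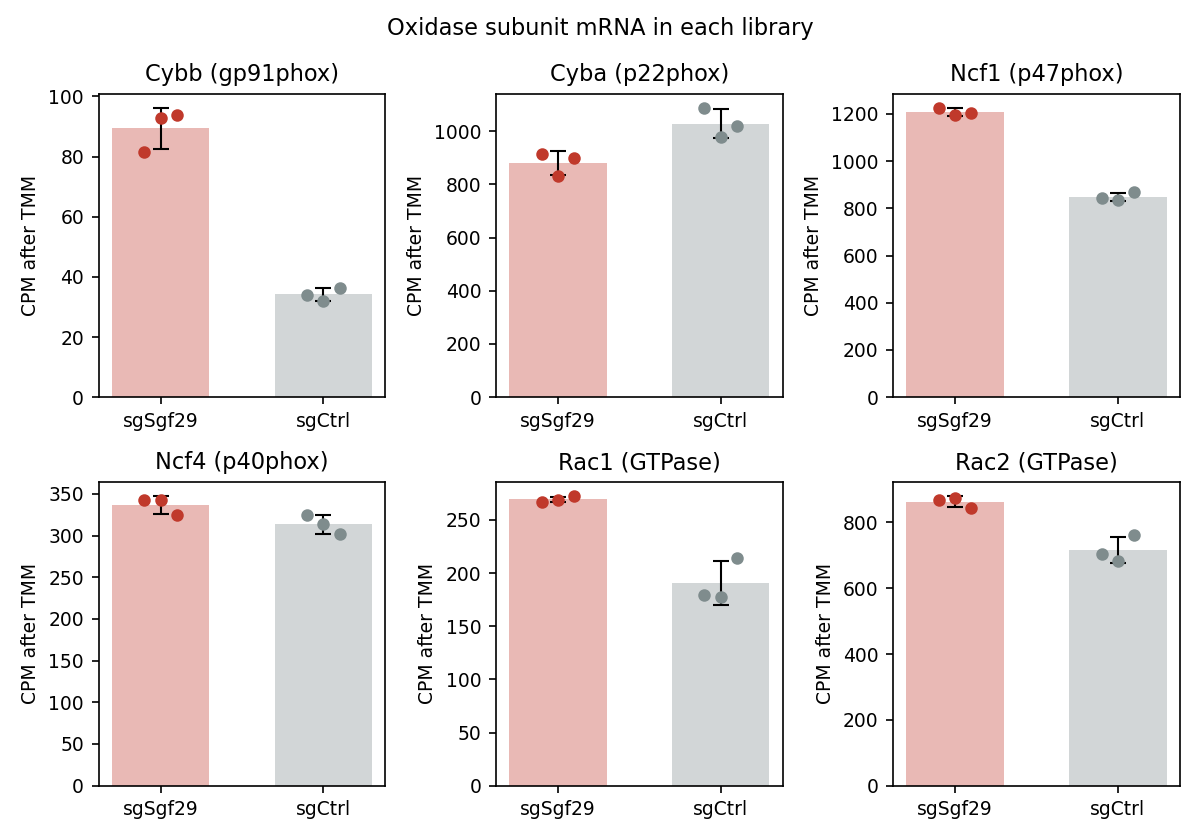
Level of each oxidase subunit mRNA in CPM after TMM scaling (y axis, each panel with its own scale from 0), with sgSgf29 left and sgCtrl right. Points are the 3 libraries of a group, bars their mean and whiskers 1 SD (n = 3). The sgSgf29 points lie above the sgCtrl points for Cybb, Ncf1, Rac1 and Rac2 and, with this scaling, below them for Cyba, which was not lower with library size alone, and for Ncf4 the lowest sgSgf29 and the highest sgCtrl library are level.

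The membrane chains moved in opposite directions with TMM scaling, though Cyba did not fall with library size alone. The RefSeq windows at their starts (GRCm38.p6) are shown because each chain needs the other for a stable heterodimer while their mRNAs parted here, and because a factor of the myeloid lineage, PU.1, is known to act on the CYBB promoter in human cells. Each is read 5′ to 3′ on the minus strand with 250 bases before and 30 after the start, which is base 251. The Cybb window spans chrX:9469295-9469574 and the Cyba window chr8:122432911-122433190. The start that RefSeq gives Cybb lies inside the longer span that GENCODE gives the gene. Capitals mark matches to the motifs searched on both strands, GAGGAA (a PU.1 core), a joint ETS and IRF element (GGAA, any 2 bases, GAAA), TTNNGNAA (C/EBP), CCAAT and TATAAA.
Cybb: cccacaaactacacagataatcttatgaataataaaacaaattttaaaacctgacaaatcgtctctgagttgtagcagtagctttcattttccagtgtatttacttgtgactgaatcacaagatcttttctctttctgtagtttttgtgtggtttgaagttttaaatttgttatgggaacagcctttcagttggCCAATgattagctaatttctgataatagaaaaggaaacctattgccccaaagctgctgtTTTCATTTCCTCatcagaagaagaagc
Cyba: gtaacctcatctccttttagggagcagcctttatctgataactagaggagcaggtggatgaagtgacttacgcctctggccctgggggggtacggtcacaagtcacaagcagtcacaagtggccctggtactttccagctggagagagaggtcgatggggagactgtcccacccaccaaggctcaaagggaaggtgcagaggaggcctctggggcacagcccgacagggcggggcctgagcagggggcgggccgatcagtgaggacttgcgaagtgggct
The Cybb window holds CCAAT at bases 195 to 199, and, on the opposite strand, the joint ETS and IRF element at bases 254 to 263 and GAGGAA at bases 260 to 265, which overlap each other. The joint element and GAGGAA lie after the start that RefSeq gives, and CCAAT lies before it. Of 32851 windows of the same 300 bases before trimming, 37.4% hold CCAAT, 2.72% hold the joint element and 28.3% hold GAGGAA. TTNNGNAA stood in 40.7% and TATAAA in 13.6% of all windows and in none of the windows of Cybb, Cyba and Ncf1, the 3 members that matched the table. The Cyba and Ncf1 windows hold none of the 5 motifs searched. Base composition also separates the chains: the whole window has 1 CpG and 35.3% G or C at Cybb, 9 CpG and 60.7% at Cyba, and 3 CpG and 54.0% at Ncf1, where the median window has 7 CpG. These matches are a description of letters, not of bound sites.

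Cybb, on chrX:9435252-9487771 (GRCm38, GENCODE), had the largest change of the 6. Its counts were 1392, 2057 and 1921 in the sgSgf29 libraries and 536, 479 and 727 in the sgCtrl libraries. In CPM these are 81.6, 92.7 and 93.9 in sgSgf29, against 34.1, 32.1 and 36.3 in sgCtrl. The lowest sgSgf29 library lies above the highest sgCtrl library by more than the whole spread within either group. The means were 89.4 ± 6.79 CPM in sgSgf29 and 34.2 ± 2.13 CPM in sgCtrl (SD, n = 3 each). Cybb mRNA rose by 2.61-fold, a log2 fold change of 1.39 (SE 0.08, adjusted p = 2.04e-12, edgeR), a larger value than 94.0% of the genes tested have. It was the only subunit still called when a change of at least 1.5-fold was asked for.

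Cyba, on chr8:122424776-122432930, encodes the p22phox chain, which docks the cytosolic subunits. It measured 913, 830.3 and 900.2 CPM in sgSgf29, against 1088, 979.9 and 1018 CPM in sgCtrl, and the groups did not overlap. The means were 881 ± 44.5 CPM in sgSgf29 and 1029 ± 54.5 CPM in sgCtrl (SD, n = 3 each). The log2 fold change was -0.22 (SE 0.07, adjusted p = 0.00856, edgeR). The call did not hold without sgSgf29 replicate 2, where the log2 fold change was -0.17 (adjusted p = 0.0722, edgeR), or without sgCtrl replicate 1, where it was -0.18 (adjusted p = 0.069, edgeR). With scaling by library size alone the value was 0.0078 (adjusted p = 0.917, edgeR), so the direction itself depends on the scaling.

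Of the cytosolic subunits, Ncf1 encodes p47phox, the organizer that is phosphorylated on activation and then binds p22phox, and it lies on chr5:134220053-134229625. It measured 1225, 1197 and 1203 CPM in sgSgf29, against 842, 837 and 869 CPM in sgCtrl. The groups are far apart relative to their spread, with means of 1208 ± 15.1 CPM in sgSgf29 and 849 ± 17.5 CPM in sgCtrl (SD, n = 3 each). Ncf1 rose by 1.42-fold, a log2 fold change of 0.51 (SE 0.07, adjusted p = 9.73e-07, edgeR). Its exons overlap those of Gtf2ird2 on the opposite strand over 361 bases, and whether strand was used in counting is not given in the sources used here. The mouse annotation held no pseudogene that matched Ncf1, or any of the other 5 genes, over at least 100 bases at 95% identity.

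Ncf4, on chr15:78244801-78262580, encodes p40phox, which binds phosphatidylinositol 3-phosphate on the membrane of a forming phagosome. Its levels were 342, 343 and 324.47 CPM in sgSgf29, against 324.46, 314 and 301.9 CPM in sgCtrl. The lowest sgSgf29 and the highest sgCtrl library thus differ in the second decimal only. The means were 336.5 ± 10.4 CPM in sgSgf29 and 313.6 ± 11.3 CPM in sgCtrl (SD, n = 3 each), and the log2 fold change of 0.10 (SE 0.06, adjusted p = 0.153, edgeR) did not pass the test. With library size alone it was 0.33 (adjusted p = 5.96e-05, edgeR).

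Rac1, the GTPase form found in most tissues, lies on chr5:143503634-143528036. It measured 266.7, 269 and 272 CPM in sgSgf29, against 179, 178 and 214 CPM in sgCtrl, where replicate 3 is the highest. The means were 269 ± 2.64 CPM in sgSgf29 and 190.3 ± 20.8 CPM in sgCtrl (SD, n = 3 each), a rise of 1.41-fold (log2 fold change 0.50, SE 0.07, adjusted p = 3.13e-06, edgeR). Of its 4216 exon bases, 2309 overlap Daglb on the opposite strand, so its counts are uncertain if strand was not used.

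Rac2, the blood cell form and the main Rac of the neutrophil oxidase, lies on chr15:78559167-78572783. Its levels were 868, 875 and 844 CPM in sgSgf29, against 703, 684 and 762 CPM in sgCtrl, again with sgCtrl replicate 3 the highest of its group and below every sgSgf29 library. The means were 862 ± 16.4 CPM in sgSgf29 and 716 ± 40.5 CPM in sgCtrl (SD, n = 3 each). Rac2 rose by 1.20-fold, a log2 fold change of 0.27 (SE 0.07, adjusted p = 0.00157, edgeR), and with library size alone the value was 0.50. Stretches of at least 100 bases of its exons match 7 other genes at 95% identity or more, so some reads could have several matches.

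**Figure D2:**
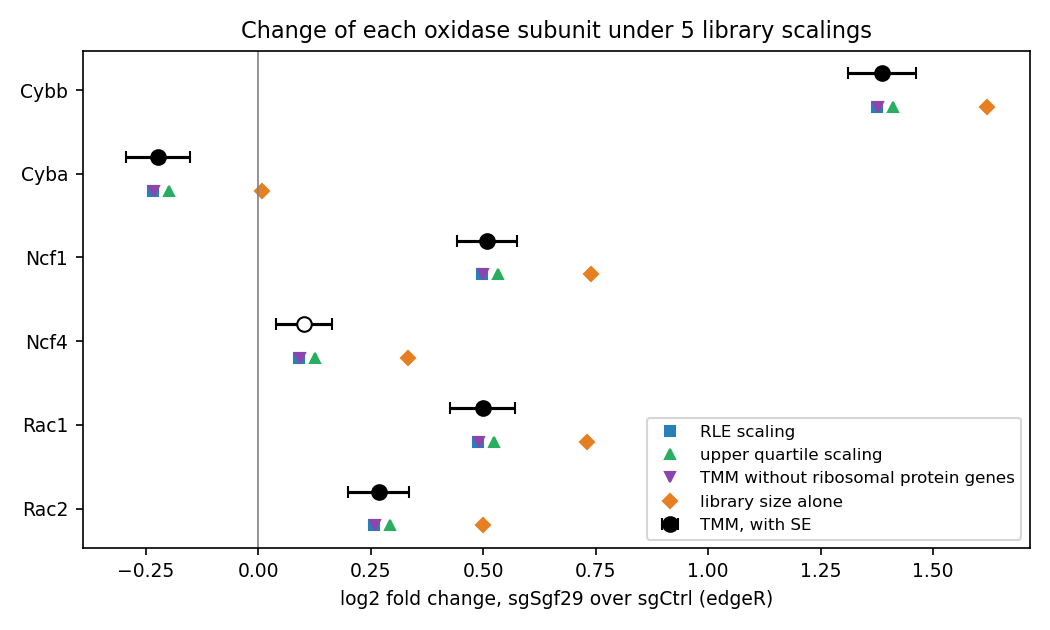
Log2 fold change, sgSgf29 over sgCtrl, of each subunit (x axis). Black circles with SE whiskers are the TMM values, open where the adjusted p was not under 0.05, and coloured marks are the same genes under 4 other scalings. Library size alone (orange) moves every gene to the right, Cyba to 0.0078 and Ncf4 to 0.33, while the other 3 stay close to TMM.

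TMM factors were 1.06 to 1.10 in sgSgf29 and 0.917 to 0.934 in sgCtrl libraries. With library size alone, the median over all genes tested was 0.24 on the log2 scale, with 5575 genes called as higher and 2385 as lower in sgSgf29, in place of 3957 and 3842 with TMM. Relative to that shifted median, Cyba was below it and Cybb, Ncf1, Rac1, Rac2 and Ncf4 were above it.

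Ratios within a library do not depend on scaling. The Cybb to Cyba count ratio was 0.0894, 0.112 and 0.104 in sgSgf29, against 0.0313, 0.0327 and 0.0357 in sgCtrl, 3.05-fold higher in sgSgf29 (log2 difference 1.61, SE 0.11). For the cytosolic pair, the Ncf1 to Ncf4 ratio was 3.58, 3.49 and 3.71 in sgSgf29, against 2.59, 2.66 and 2.88 in sgCtrl (log2 difference 0.41, SE 0.05). In the GTPases the Rac2 to Rac1 ratio was lower in sgSgf29, at 3.25, 3.25 and 3.10, against 3.92, 3.85 and 3.55 in sgCtrl (log2 difference -0.24, SE 0.05). The Rac2 to Rac1 ratio is uncertain if strand was not used, since Rac1 overlaps Daglb, and Rac2 has stretches that match other genes. None of these 3 ratios overlapped between the groups. An exact two-sided permutation test gave p = 0.1 for each, the smallest that 3 libraries against 3 allow and the same after Benjamini-Hochberg adjustment over the 3 ratios, so this test cannot reach 0.05 here.

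**Figure D3:**
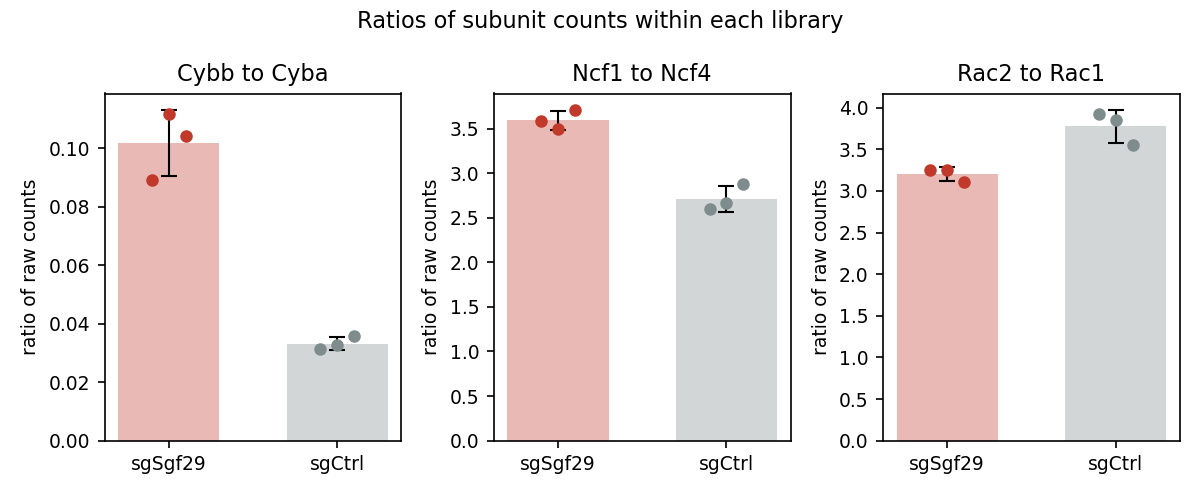
Ratio of raw counts of 2 subunits within each library (y axis from 0), sgSgf29 left and sgCtrl right. Points are libraries, bars means and whiskers 1 SD (n = 3). The ratios of Cybb to Cyba and of Ncf1 to Ncf4 are higher in sgSgf29 and that of Rac2 to Rac1 is lower, the last uncertain if strand was not used.

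Levels of different genes were compared per kb of exon (CPM after TMM per kb, over all annotated exon bases). In sgSgf29 the order was Cyba at 1184 ± 59.7, Ncf1 at 419 ± 5.24, Rac2 at 284 ± 5.40, Ncf4 at 229.9 ± 7.13, Rac1 at 63.9 ± 0.627 and Cybb at 18.8 ± 1.43 CPM per kb (SD, n = 3). In sgCtrl it was the same, with Cyba at 1382 ± 73.3, Ncf1 at 295 ± 6.06, Rac2 at 236 ± 13.3, Ncf4 at 214 ± 7.72, Rac1 at 45.1 ± 4.92 and Cybb at 7.19 ± 0.447 CPM per kb. Ranges of neighbours in this order did not overlap in either group. The closest neighbours were Rac2 and Ncf4 in sgCtrl, whose nearest libraries were at 225 and 222 CPM per kb. Thus the mRNA of the catalytic chain, the subunit with the largest change, was the scarcest per length in both groups. Summed over the 6 genes, the libraries held 3607 to 3697 CPM in sgSgf29 and 3025 to 3201 CPM in sgCtrl. Of the per-length signal of the 3 Rac genes, Rac2 took 80.2% ± 0.435 in sgSgf29 and 80.5% ± 0.48 in sgCtrl, Rac1 took 18.0% ± 0.403 in sgSgf29 and 15.4% ± 0.727 in sgCtrl, and Rac3 took 1.79% ± 0.0945 in sgSgf29 and 4.07% ± 0.272 in sgCtrl (SD, n = 3 each). The per-length level of Rac1 and these shares are uncertain if strand was not used, since 2309 of its 4216 exon bases overlap Daglb.

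**Figure D4:**
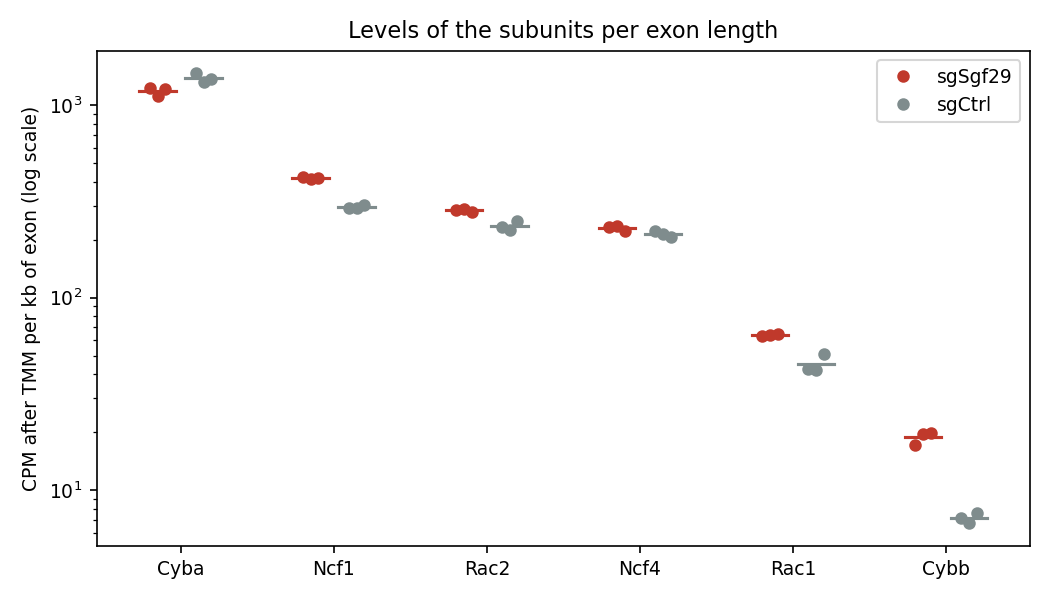
CPM after TMM per kb of exon for each subunit on a log scale (y axis), sgSgf29 left of sgCtrl. Points are libraries and lines group means. The order of genes is the same in both groups, with Cyba at 1184 and 1382 CPM per kb at the top and Cybb at 18.8 and 7.19 CPM per kb at the bottom.

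The genes that surround the oxidase were read from 11 lists of 136 genes, 120 of them tested, of which 79 rose, 21 fell and 20 did not pass. That is 65.8% higher and 17.5% lower, against 35.4% and 34.4% of all genes tested, the shares against which the counts of each list below are to be read. Their median log2 fold change was 0.49. The lists were chosen with earlier results of these data known, so this contrast with all genes tested is a description only. Of the proteins that bind or serve the complex, 7 of 9 tested rose and 1 fell (median 0.74). Hvcn1, the voltage-gated proton channel that balances the charge the oxidase moves, rose to 127.6 ± 3.41 CPM in sgSgf29, against 17.9 ± 1.33 CPM in sgCtrl (log2 fold change 2.83, SE 0.07, adjusted p = 4.2e-17, edgeR), although 1574 of its exon bases overlap Tctn1 on the opposite strand. S100a9 and S100a8, a calcium-binding pair that delivers arachidonic acid to the oxidase, rose by 1.92 and 1.52 on the log2 scale. Further genes, picked after their values were seen, are BC017643, the table's name for Cybc1, the chaperone of the heterodimer, which rose by 0.55, and Prdx6, a peroxiredoxin with phospholipase activity, which fell by 1.07.

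Of the kinases and lipases that act on the subunits or make their lipid signals, 12 of 17 tested rose and 2 fell (median 0.33). Syk, the kinase below Fc receptors, rose by 1.12, Mapk3, which can phosphorylate p47phox, by 1.03, and Pik3cd, a leukocyte phosphoinositide kinase, by 1.01 on the log2 scale. Of the exchange factors that load Rac with GTP, 11 of 16 tested rose and 2 fell (median 0.45). Trio measured 76.9 ± 3.19 CPM in sgSgf29 and 11.2 ± 1.59 CPM in sgCtrl (SD, n = 3 each), a rise of 2.79 on the log2 scale, and Tiam2 and Vav3 rose by 2.10 and 1.25. Of the genes that hold Rac inactive or speed the hydrolysis of its GTP, 7 of 12 tested rose and 5 did not pass (median 0.42), with Chn2 at 2.81, Abr at 1.00 and Arhgap25 at 0.70 on the log2 scale, the last a GTPase-activating protein of phagocytes.

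Among the related GTPases 4 of 7 rose and 3 fell, with Rhov at 2.90, Rhoq at 1.20 and Rhoj at -1.43, and Rac3, named after its value was seen, at -0.90 (6.83 ± 0.383 CPM in sgSgf29 and 12.8 ± 0.0906 CPM in sgCtrl). Of the actin effectors of Rac, 9 of 10 tested rose and 1 did not pass (median 0.67), with the scaffolds Iqgap2 at 2.37 and Iqgap1 at 1.05 and Cyfip1, of the WAVE complex, at 0.71. Of 9 genes of other NADPH oxidases, 7 were too low to test. Noxo1, an organizer of the NOX1 oxidase, measured 5.41 ± 0.843 CPM in sgSgf29 and 3.15 ± 0.868 CPM in sgCtrl (log2 fold change 0.76, adjusted p = 0.00323, edgeR), and 1347 of its exon bases overlap Tbl3 on the opposite strand.

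Receptors that trigger the oxidase had the highest median of the 11 lists, 1.21, with 12 of 16 tested higher and 2 lower. C5ar1, the receptor for the complement fragment C5a, measured 61.6, 68.2 and 67.1 CPM in sgSgf29, against 3.69, 4.35 and 3.90 CPM in sgCtrl, and rose by 4.05 on the log2 scale (SE 0.10, adjusted p = 2.18e-17, edgeR). Ptafr, the receptor for platelet-activating factor, rose by 3.26 and Itgam, the CD11b chain of a complement receptor, by 1.96, although Itgam shares 3450 exon bases with Gm49368 on its own strand. Fcgr1, a high-affinity IgG receptor, named after its value was seen, had 125 counts over the sgSgf29 libraries and 0 over the sgCtrl libraries, which makes it at least 35.4-fold higher in sgSgf29 against a floor of 3 counts over the group. The list median was 1.21 with Fcgr1 at this bound as well.

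Of the enzymes that supply NADPH, 4 of 8 tested were higher and 3 lower (median 0.20), which is near the 35.4% and 34.4% of all genes tested. Nadk, which makes NADP from NAD, rose by 0.86, Idh1 by 0.73 and Taldo1 by 0.67. The 3 lower, named after their values were seen, were Pgls at -0.58, Tkt at -0.47 and Pgd at -0.47. Oxidant-handling genes had the opposite balance, with 6 of 10 lower and 2 higher (median -0.33). Mpo, which turns the hydrogen peroxide formed from superoxide into hypochlorous acid, measured 41.7, 41.3 and 78.2 CPM in sgSgf29, against 191, 171 and 212 CPM in sgCtrl (log2 fold change -1.83, SE 0.16, adjusted p = 1.94e-09, edgeR). The sgSgf29 replicate 3 is the highest of its group, and below every sgCtrl library. Sod1, which converts superoxide to hydrogen peroxide, fell by 0.69, and Gpx4, which reduces lipid peroxides, by 0.48 (-0.25 with library size alone). The 2 higher, named after their values were seen, were Cat at 0.46 and Epx, which rests on few counts. In the same libraries the mRNA of the chain that makes superoxide rose, that of its partner Cyba did not, and those of the cytosolic dismutase and of myeloperoxidase fell.

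Of 13 factors known to act on oxidase gene promoters, 10 rose and 2 fell (median 0.44). Hoxa9, a homeobox factor of the MLL-AF9 program, fell by 1.37, and Nfkb1, a subunit of NF-kappaB, rose by 0.77. Spi1, which encodes PU.1, rose by 0.32 (adjusted p = 0.000266, edgeR; 0.55 with library size alone), Cebpe by 0.41 (0.64 with library size alone) and Irf8 by 0.59, the last with overlapping groups (3.95 ± 0.376 CPM in sgSgf29 and 2.58 ± 1.13 CPM in sgCtrl, adjusted p = 0.0454, edgeR). These last 3 were named after their values were seen.

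**Figure D5:**
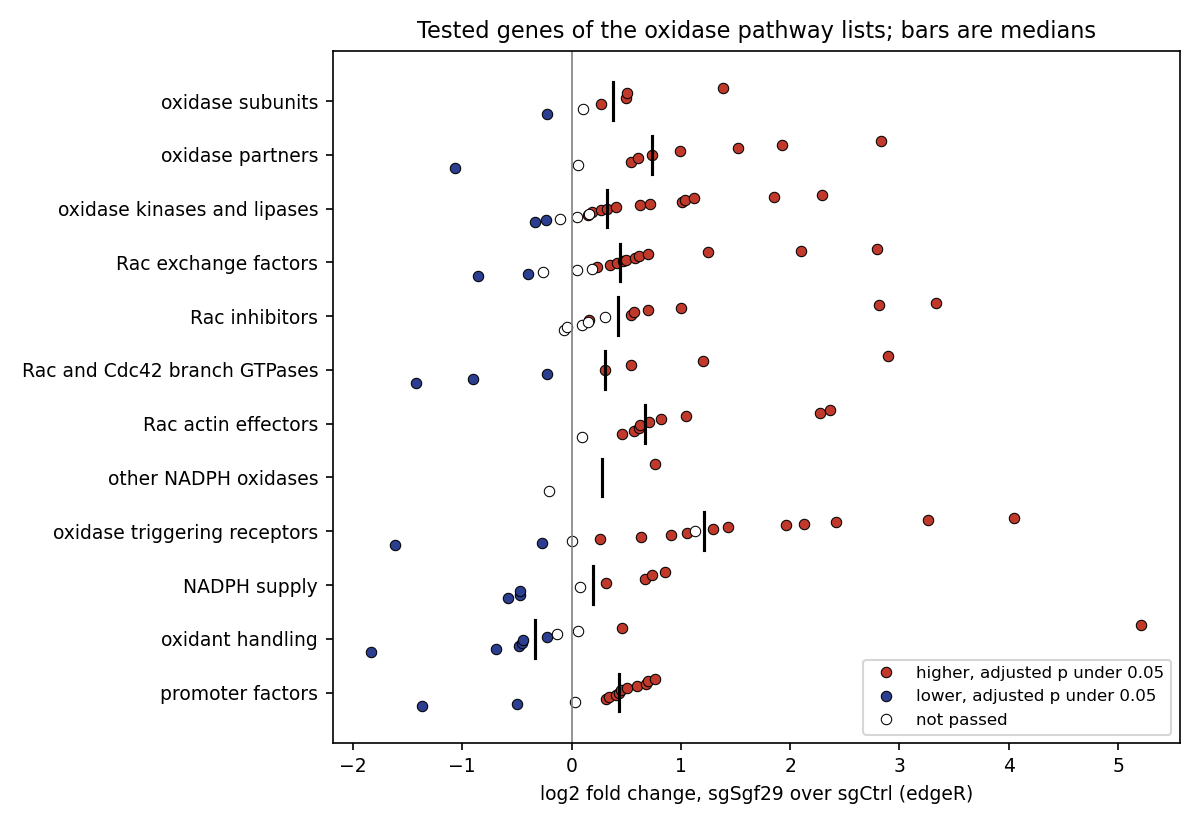
Log2 fold change, sgSgf29 over sgCtrl (x axis), of the tested genes of the oxidase subunits and of 11 lists around them (rows). Red circles rose and blue circles fell at an adjusted p under 0.05, open circles did not pass, and black bars are list medians, from -0.33 for oxidant handling to 1.21 for triggering receptors. Fcgr1, with no counts in sgCtrl, is left out of the points, though the bar counts it, and the rightmost point of oxidant handling is Epx, at 0.955 CPM in sgSgf29 and 0.0223 CPM in sgCtrl, which rests on few counts.

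Most of the tested markers of mature phagocytes rose in the same libraries. Of 9 neutrophil markers 7 rose and 2 fell, and their summed level was 5109 to 5315 CPM in sgSgf29 and 2811 to 3007 CPM in sgCtrl. Of 10 macrophage markers 6 were tested, 4 rose and 1 fell, with sums of 2296 to 2447 CPM in sgSgf29 and 1785 to 1925 CPM in sgCtrl, while the defining markers Mrc1, C1qa and C1qb had 0 counts. Of 8 markers of the leukemia 3 rose and 5 fell, with sums of 1120 to 1191 CPM in sgSgf29 and 1074 to 1087 CPM in sgCtrl. Without Itgam, at 531.8 ± 34.5 CPM in sgSgf29 and 136.5 ± 7.91 CPM in sgCtrl (SD, n = 3 each), this sum would be lower in sgSgf29. Ptprc and Meis1 rose as well, and Kit, Hoxa9, Hoxa10, Myb and Mpo fell. Itgam, Hoxa9, Hoxa10, Meis1 and Mpo of these 8 also stand in the lists above. The part of these shifts in the values of the subunits was not tested. Mast cell markers had 0 counts, and erythroid, B, T and NK cell, eosinophil and fibroblast markers summed to at most 2.23 CPM in any library. Megakaryocyte markers summed to 33.8 to 39.5 CPM in sgSgf29 and 11.5 to 13.9 CPM in sgCtrl, with Pf4 and Gp1bb at 0 counts. Of the 2087 exon bases of Gp1bb, 1902 overlap Sept5 on its own strand, so its 0 may reflect how shared reads were counted. Of the 3 megakaryocyte markers tested, Itgb3 alone rose, by 3.02 on the log2 scale (adjusted p = 1.28e-13, edgeR), while Itga2b fell by 1.13 on the log2 scale (adjusted p = 0.00172, edgeR) and Gp9, at -0.32, did not pass.

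The genes most like each subunit were sought by Pearson's r of log2 CPM over the 6 libraries among 9164 genes. The closest were Rassf2 (r = 0.99963) and Slc25a12 (0.99915) for Cybb, Dhcr7 (0.99494) and Tmem160 (0.99302) for Cyba, and Tnfrsf23 (0.99993) and Fam129b (0.99981) for Ncf1. For the others they were Nlrc4 (0.99031) and Cant1 (0.98670) for Ncf4, Zbtb34 (0.99834) and Fbxo46 (0.99822) for Rac1, and Ubxn4 (0.99820) and Ndfip1 (0.99734) for Rac2. With 2 groups that stand apart, such an r mostly restates the difference between the groups. By its construction r does not depend on the size of a change. Tnfrsf23 rose by 2.32 and Fam129b by 2.96 on the log2 scale, where Ncf1 rose by 0.51.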

How the data were processed

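mRNA of mouse MLL-AF9-Cas9+ cells was sequenced in 3 sgSgf29 and 3 sgCtrl libraries. The authors deposited raw counts per gene. The study's methods name STAR on mm10, featureCounts and edgeR with TMM. In the submitters' processing notes the aligner is STAR 2.6.0a and the build GRCm38, while the table has the layout of htseq-count. The library kit keeps strand, per the labels, but the annotation, the strand setting and how multiply matching reads were treated are not given in the sources here. Bookkeeping entries, 25.8% to 31.4% of a library's table, entered neither library sizes nor tests.

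Genes passing filterByExpr (a count of 10 at the median library size, 15 in total) were scaled by TMM and compared by quasi-likelihood in edgeR 4.0.16 (R 4.3.3), with Benjamini-Hochberg adjustment, after a check on simulated counts. The simulation changed few genes, in both directions, unlike these data, so it cannot judge the choice of scaling. The biological coefficient of variation was 6.61%. Replicates differed by more than sampling noise, at a chi-square of 4.65 to 16.3 for each degree of freedom. The lowest count of a subunit in any library was 479. Alternatives changed the scaling, filter, threshold and test (DESeq2 1.42.0, limma-voom of limma 3.58.1, edgeR's likelihood ratio test), added a block for the replicate number or left out a library. Positions, exon lengths and overlaps are from GENCODE on GRCm38.

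The members and lists were chosen with earlier results of these data known. Genes named are the members, Sgf29, the called genes, up to 3 a list, of smallest adjusted p, and, for each member, the 2 genes of highest Pearson's r with a mean of at least 5 CPM and no clone or predicted name. A gene that this rule takes is not reported here.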

Additional observations from a re-analysis of the deposited data

How the results depend on the processing

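The call and direction of Cybb held under all 18 alternatives of the fit (log2 fold change 1.34 to 1.62). Ncf1, Rac1 and Rac2 stayed higher with an adjusted p under 0.05 in all of them and lost their call only where a change of at least 1.5-fold was asked for (0.51, 0.50 and 0.27), as did Cyba (-0.22). That threshold left 1 subunit higher and 0 lower, 51 genes of the lists higher and 8 lower, and 2113 of all genes higher and 1723 lower. With scaling by library size alone Cyba turned to 0.0078, Ncf4 passed at 0.33, 0 subunits were lower and 2385 of all genes were lower. Leaving out single libraries gave Cyba -0.26 to -0.17 and 0 to 1 subunits lower, with the call lost without sgSgf29 replicate 2 or sgCtrl replicate 1. The fit with the replicate number as a block called 4059 genes higher and 3937 lower and left the subunits at 4 higher and 1 lower. The correlations of deviations from group means do not settle whether the numbers pair the libraries. Same-numbered libraries correlated at 0.0051, 0.055 and 0.078, and differently numbered ones at -0.091 to 0.040. Replicates 2 and 3 of sgSgf29 correlated best with the sgCtrl library of their number, and replicate 1 with sgCtrl replicate 2. With a pseudocount, same-numbered pairs or a library left out, the 3 ratios kept their direction. Of 792 comparisons over the 44 other genes that the naming rule takes, 783 kept their call, 8 lost it, 1 gained it and 0 reversed. The causes were not tested.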

Other observations

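Ncf4 and Rac2 lie 296.6 kb apart on chromosome 15, with 10 genes of the table between them. The genes named here were chosen for their place, after their values were seen. Of the 10, 4 were high enough to test, and their changes went in both directions. Csf2rb2 and Csf2rb, which encode closely similar beta chains of cytokine receptors, the first for IL-3 and the second also for GM-CSF, and between which reads could be split, were at 150.9 ± 3.41 and 443.6 ± 12.0 CPM in sgSgf29, against 35.2 ± 2.81 and 235.8 ± 8.76 CPM in sgCtrl (SD, n = 3 each). These are log2 fold changes of 2.11 (SE 0.07) and 0.91 (SE 0.06). Tst and Mpst, neighbouring genes for sulfurtransferases, fell by 1.31 and 0.50 on the log2 scale (adjusted p = 5.14e-10 and 2.89e-06, edgeR). Of the 6 tested genes from Ncf4 to Rac2, those at the ends, Ncf4 at 0.10 and Rac2 at 0.27, had the smallest log2 fold changes in size.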
